A study of Mus musculus with 9 samples.

Results

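The homeodomain transcription factors Hoxa13 and Hoxa11 were mapped in mouse limb tissue, and their peaks were examined here at the HoxC and HoxB gene clusters, which encode Hox proteins themselves. The members were all deposited ChIP-seq peaks whose start lay in build mm9 on chromosome 15 between 102650000 and 102900000 (HoxC, 250 kb) or on chromosome 11 between 96000000 and 96300000 (HoxB, 300 kb). There were 83 such peaks among the 243649 of all 5 lists, 57 in the HoxC window and 26 in the HoxB window. The windows were set by position and not by any measured value, though with earlier results of these data known.

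Chromatin immunoprecipitation and sequencing (ChIP-seq) recovers the DNA bound by one protein, and a peak is a stretch with more reads than its surroundings. All embryos were wild-type ICR mice, and the antibodies are labelled as home-made. The Hoxa13 libraries, 1 per stage, were made from the autopod (the future hand and foot) at E11.0 (day 11.0 of embryonic life), whole E11.5 limb buds, and limb buds of E12.5 embryos. The E11.0 chromatin came from 11 pairs of autopods pooled together, and that of E11.5 from the limb buds of a litter. The Hoxa11 libraries, replicates 1 and 2, were made from E11.5 limb buds. The labels do not say whether these came from separate litters, nor whether limb buds were fore- or hindlimb. Stage changes together with tissue between E11.0 and E11.5, and together with the ChIP and library protocol between E11.5 and E12.5, so these cannot be told apart. The Hoxa13 lists held 50890 (E11.0), 143460 (E11.5) and 44699 peaks (E12.5), and the Hoxa11 lists held 2953 in replicate 1 and 1647 in replicate 2. The sources used here do not give read depth. Because Hoxa13 has 1 library per stage and peaks are not replicates, differences between stages, proteins or clusters are described without a test.

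Hox genes encode DNA-binding proteins that give positional identity along the body and limb axes. They lie in 4 clusters, A to D, in which gene order follows the order of expression along the body. In the limb, the posterior genes of the A and D clusters carry most of the patterning: Hoxa11 acts in the forearm and lower leg and Hoxa13 in the hand and foot. The posterior C genes have a larger place in the hindlimb, the trunk and the skin. Hoxc13 is needed for hair and nails, Hoxc12 is its neighbour of the same posterior class, Hoxc11 is a paralogue of Hoxa11, and Hoxc10 and Hoxc9 act in spinal motor neuron identity. Hoxb13 has a role in the tail and prostate, and Hoxb9 works with the other group 9 paralogues in early forelimb patterning. All 7 of these genes are named in the RefSeq table of build GRCm38, in the order Hoxc13, Hoxc12, Hoxc11, Hoxc10, Mir196a-2 and Hoxc9 on chromosome 15, and Hoxb13, Mir196a-1 and Hoxb9 on chromosome 11. That build differs from the mm9 of the peaks, so peaks were placed by position only and not assigned to a gene, exon or promoter.

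The HoxC window was dense in Hoxa13 peaks at E11.5 and E12.5 and in Hoxa11 peaks, whereas the HoxB window was near the genome average in Hoxa13. In the HoxC window Hoxa13 had 5 peaks in the E11.0 autopod, 31 in E11.5 and 10 in E12.5 limb buds, and Hoxa11 had 6 in replicate 1 and 5 in replicate 2. In the HoxB window Hoxa13 had 4, 13 and 5 peaks at the successive stages, and Hoxa11 had 2 in each replicate. Per 100 kb, Hoxa13 at E11.5 gave 12.4 peaks in the HoxC window and 4.33 in the HoxB window, against 5.41 over the main chromosomes. At E12.5 the densities were 4 in HoxC and 1.67 in HoxB, against 1.66 over the main chromosomes, and at E11.0 they were 2 in HoxC and 1.33 in HoxB, against 1.89. For Hoxa11 the HoxC window held 2.4 peaks per 100 kb in replicate 1 and 2 in replicate 2, while the main chromosomes averaged 0.109 and 0.0603. In the HoxB window the Hoxa11 density was 0.667 in both replicates.

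How common such counts were was read from tiles of the same length laid end to end along the main chromosomes. At E11.5, 3.59% of 10576 tiles of 250 kb held at least the 31 Hoxa13 peaks of HoxC, where the median tile held 12. The share was 6.41% for its 10 peaks at E12.5 and 43.1% for its 5 peaks at E11.0. For Hoxa11 it was 0.303% in replicate 1 and 0.227% in replicate 2, where the median tile held 0 peaks. Of 8814 tiles of 300 kb, 61% had at least the HoxB count of Hoxa13 for the E11.0 list, 60.3% for E11.5 and 46.9% for E12.5. The HoxB counts of Hoxa13 were thus ordinary for the genome. Its 2 Hoxa11 peaks were matched by 5.73% of tiles in replicate 1 and 2.73% in replicate 2. The E11.5 counts depend on list length. Among the widest 44699 peaks of each stage the HoxC window held 17 at E11.5, 5 at E11.0 and 10 at E12.5. The HoxB count at E11.5 was then 6. This cut shortens the E11.5 list from 143460 peaks and so lowers its counts by construction. While the list fell from 143460 to 44699 peaks, the HoxC count fell from 31 to 17 and the HoxB count from 13 to 6. Both windows thus kept a larger share of their E11.5 peaks than the whole list did. The cut keeps wide peaks, and the median E11.5 width was 340 bp in HoxC and 311 bp in HoxB, against 286 bp over the list. No density or tile share was computed at that length.

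**Figure D1:**
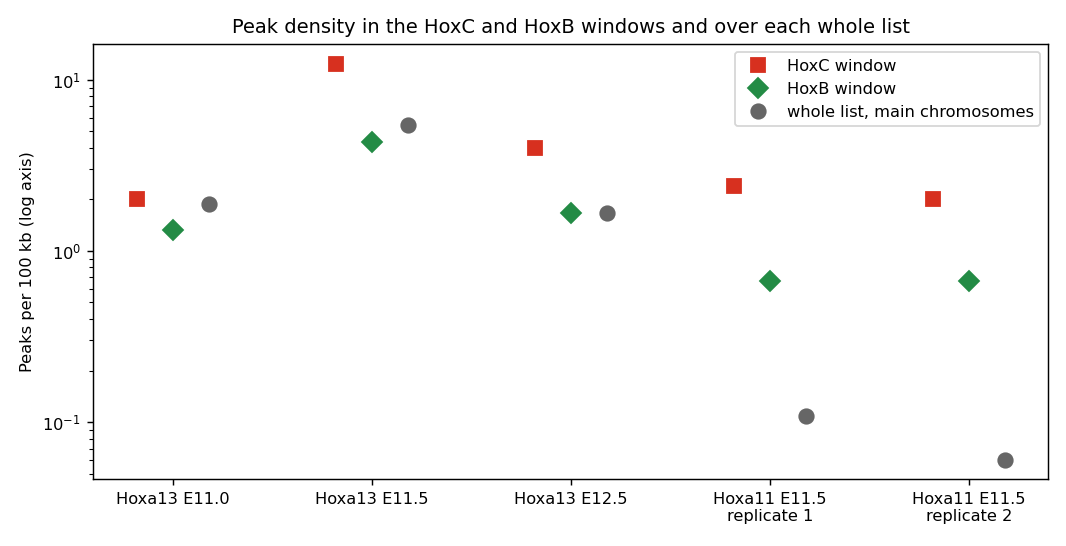
Peaks per 100 kb on a log axis for each of the 5 lists (x axis), in the HoxC window (squares), the HoxB window (diamonds) and over the main chromosomes (circles). In both Hoxa11 replicates both windows lie above the whole list, with HoxC at 2.4 and 2 and HoxB at 0.667; for Hoxa13 at E11.5 HoxC lies at 12.4 and HoxB at 4.33, on either side of 5.41.

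Peaks that shared at least 1 bp were joined into sites. This was done in the windows only, so no count of sites here or below has a genome-wide share beside it. The HoxC window held 34 sites and the HoxB window 14. A single list accounted for 20 of the HoxC sites and 7 of the HoxB sites, most of them Hoxa13 at E11.5 alone (17 and 6). Hoxa13 was found at all 3 stages in 3 HoxC sites and 1 HoxB site. Hoxa11 was found in 8 HoxC sites, 3 of them in both replicates, and in 2 HoxB sites, both of them in both replicates. One site in each cluster was found in all 5 lists.

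Along HoxC, Hoxa11 sites lay in the part of the window with higher coordinates. Counting by 50 kb from the lower edge, Hoxa13 at E11.5 had 6, 3, 7, 9 and 6 peaks, so it was spread over the whole window. Hoxa11 had 0, 0, 0, 4 and 2 peaks in replicate 1 and 0, 0, 1, 3 and 1 in replicate 2. The 3 HoxC sites with both Hoxa11 replicates fell within 37.6 kb, from 102828396 to 102866027. The median stretch between neighbouring HoxC sites was 3.73 kb and the longest, from 102739955 to 102765873, was 25.9 kb. In HoxB the densest 50 kb, from 96100001 to 96150000, held 14 of the 26 peaks. The last 82.8 kb of the HoxB window, from 96217198 to 96300000, held no peak of any list. Its first 42.7 kb was empty as well.

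**Figure D2:**
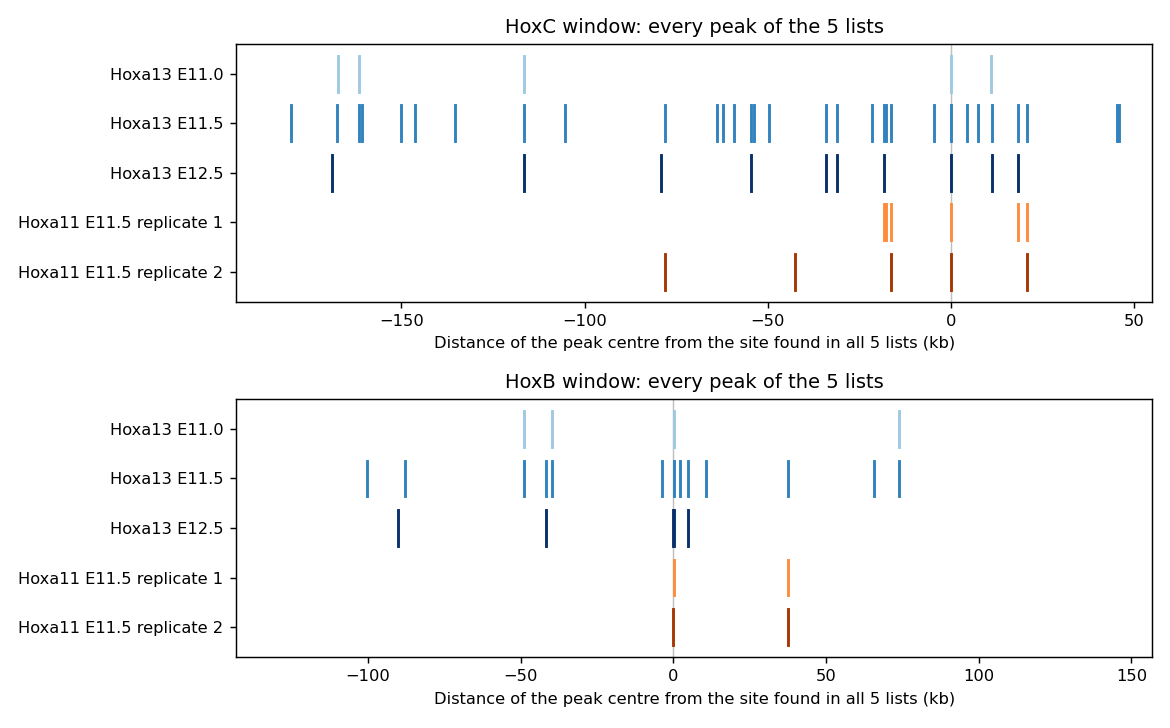
Position of every peak (vertical ticks) in the HoxC window (top) and the HoxB window (bottom), 1 row per list, as distance in kb of the peak centre from the site found in all 5 lists. Hoxa13 peaks at E11.5 run through the HoxC window, whereas the 6 and 5 Hoxa11 peaks lie to the right of its first 100 kb; the right end of the HoxB window is empty in every list.

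By the values of replicate 2, the strongest Hoxa11 site of either cluster was the HoxC site found in all lists, on chromosome 15 from 102844740 to 102845401. In replicate 2 its authors' fold enrichment, the signal at the summit over the caller's background, was 11.3, which ranked 14 of 1647 peaks in that list, and its −log10 q was 100.7. For Hoxa13 the peak measured 381 bp (E11.0), 620 bp (E11.5) and 296 bp (E12.5), and for Hoxa11 it measured 545 bp in replicate 1 and 564 bp in replicate 2. Each of these was among the wider peaks of its list, from the top 2.54% at E11.5 to the top 10.8% in Hoxa11 replicate 2. All peaks shared 296 bp, from 102844926 to 102845221, which is the E12.5 peak itself. The Hoxa11 summit at 102845068 lay inside every peak, and the centres of the Hoxa13 peaks were 0 bp from it in the E11.0 list, −18.5 bp in E11.5 and 5.5 bp in E12.5. The centres of the Hoxa11 peaks themselves were 61.0 bp from it in replicate 1 and 46.5 bp in replicate 2. The Hoxa13 lists hold no summits, so the centres do not locate binding more finely than the peaks. Both proteins were called over the same stretch here, within the resolution of the peaks.

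The corresponding HoxB site, on chromosome 11 from 96142790 to 96143655, was wide for Hoxa13 and below the list median in Hoxa11 replicate 2 enrichment. Its Hoxa13 peak at E11.5 measured 866 bp, in the top 0.495% of that list, and the E11.0 peak measured 651 bp, in the top 1.04%. At E12.5 Hoxa13 had 2 peaks there, of 329 and 140 bp, separated by 161 bp. Hoxa11 replicate 1 spanned 461 bp, in the top 15.3% of its list, and met both of them, while replicate 2 spanned 298 bp and met the first alone. The fold enrichment in replicate 2 was 3.73, rank 939 of 1647 and below the list median of 3.90. By −log10 q, at 8.57, this replicate 2 peak was above the list median of 7.10. Its summit at 96143090 fell within the first E12.5 peak, 251 bp before the second began. The stretch common to all lists was 162 bp, from 96143018 to 96143179. When 50% of both peaks had to overlap, no HoxB site had Hoxa13 at all stages and 1 HoxB site had both Hoxa11 replicates.

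**Figure D3:**
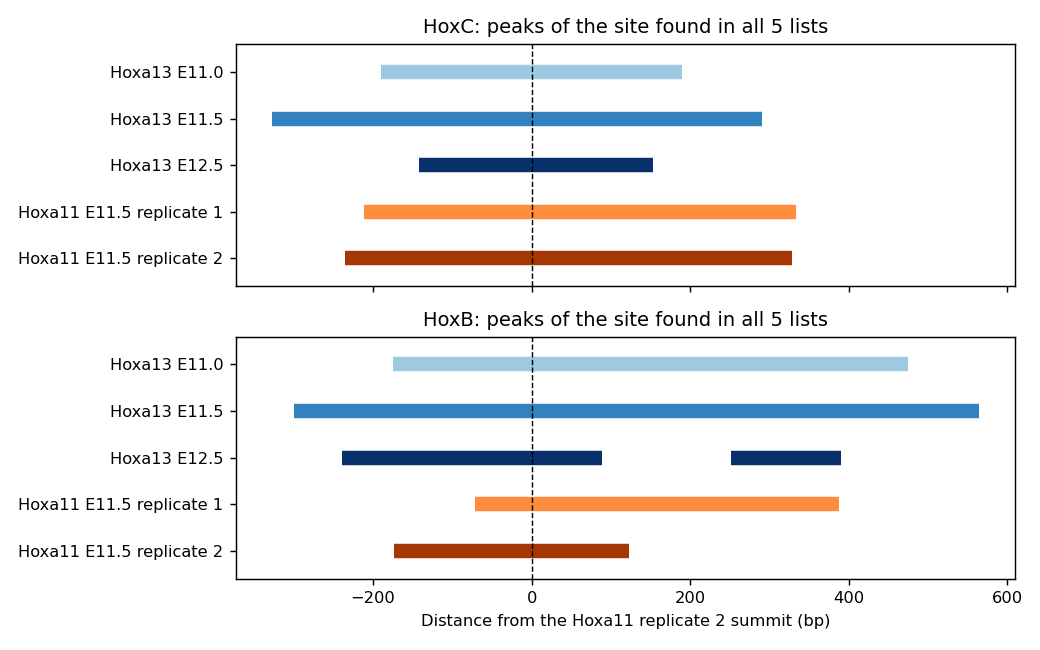
Extent of each peak (bars) in the site found in all 5 lists, in HoxC (top) and HoxB (bottom), as distance in bp from the Hoxa11 replicate 2 summit (dashed line). Every HoxC peak holds the summit, whereas the HoxB peaks of Hoxa13 at E11.0 and E11.5 reach 475 and 565 bp beyond it and E12.5 has separate peaks of 329 and 140 bp.

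Of the other sites with both Hoxa11 replicates, none had Hoxa13 at E11.0 or E12.5. In HoxB, the site from 96180532 to 96180894 had Hoxa13 at E11.5, with a peak of 303 bp. It had the higher Hoxa11 enrichment of the HoxB sites, 4.74-fold and rank 386. The nearest Hoxa13 peak of E12.5 lay 32513 bp from its replicate 2 peak. In HoxC, the site from 102828396 to 102828833 was 4.61-fold enriched, rank 447, and the site from 102865573 to 102866027 was 3.50-fold enriched, rank 1084. The −log10 q of these sites was 16.3 and 10.8, both above the list median of 7.10. At each of them a Hoxa13 peak of E11.5 held the Hoxa11 summit, with a width of 438 bp at the first and 455 bp at the second. The nearest E12.5 Hoxa13 peaks were 1649 and 2120 bp from the replicate 2 peaks.

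Hoxa11 in 1 replicate alone was found at 5 HoxC sites and no HoxB site. Replicate 1 alone had sites from 102826505 to 102826969, from 102827027 to 102827351 and from 102862996 to 102863650. The first and the last of these also had Hoxa13 at E11.5 and E12.5, and the middle one had Hoxa13 at E11.5. Only 57 bp separated the first from the middle one. Replicate 2 alone had a site from 102766640 to 102767131, shared with Hoxa13 at E11.5 and enriched 3.54-fold, and one from 102802422 to 102802621, enriched 3.29-fold. The last was the single site of either cluster with Hoxa11 and no Hoxa13, and its nearest Hoxa13 peak, at E11.5, was 6937 bp away. Both peaks found in replicate 2 alone were below that list's median enrichment of 3.90, but so were 2 of its 5 member peaks shared with replicate 1. By −log10 q, the peaks found in replicate 2 alone were at 6.27 and 5.23, below the list median of 7.10. All 5 shared peaks were above that median.

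**Figure D4:**
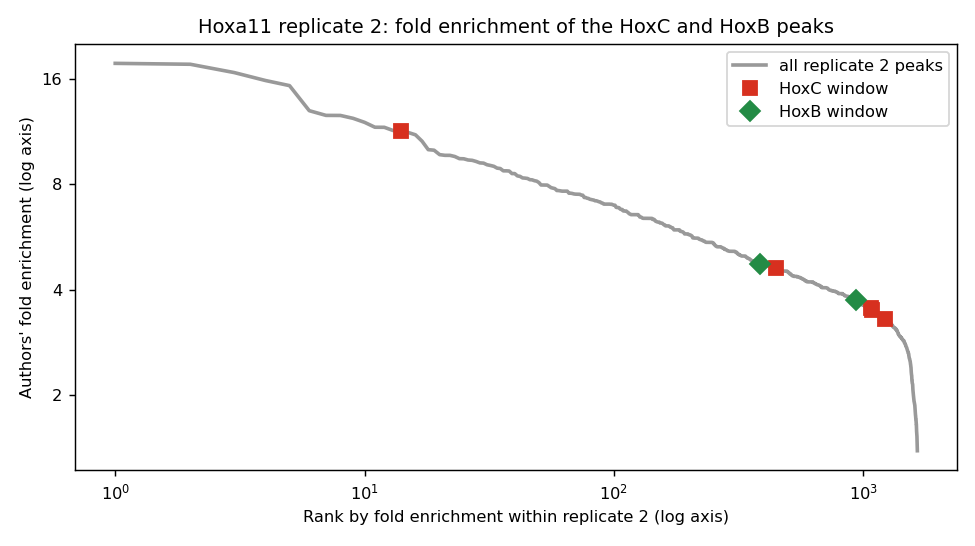
Authors' fold enrichment (log axis) against rank (log axis) for all 1647 peaks of Hoxa11 replicate 2 (grey line), with the 5 HoxC peaks (squares) and 2 HoxB peaks (diamonds). One HoxC peak, at 11.3-fold, stands at rank 14, and the others lie between 3.29 and 4.74-fold, where the markers of 3.54 and 3.50 overlap.

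Between replicates, 5 of the 8 Hoxa11 member peaks of replicate 1 met replicate 2 (62.5%, exact Clopper-Pearson 95% interval 24.5 to 91.5), against 35.8% of that whole list. Of the 7 member peaks of replicate 2, 5 met replicate 1 (71.4%, 29 to 96.3), against 64.6%. The intervals cover counting error over peaks and hold both background values.

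By the rule of 1 bp, almost every Hoxa11 peak of the clusters coincided with Hoxa13 of the same stage, as did most peaks of the whole lists. All 8 replicate 1 peaks met a Hoxa13 peak of E11.5 (100%, 63.1 to 100), against 71% of the whole list, and 6 of 7 replicate 2 peaks did (85.7%, 42.1 to 99.6), against 70.8%. By its title, 1 input library served both Hoxa13 at E11.5 and replicate 1 of Hoxa11. Replicate 2 has another input, and whether the inputs bear on this overlap was not tested. At E12.5 the counts were 4 of 8 in replicate 1, against 48.8% of the list, and 2 of 7 in replicate 2, against 55.7%. At E11.0 they were 2 of 8, against 23.9%, and 2 of 7, against 30.5%. Both E11.5 intervals hold the background values, and none of the shares at any stage was tested against them. When 50% of both peaks had to overlap, replicate 1 met E11.5 at 5 peaks and E12.5 at 1, and replicate 2 met E11.0 at 1. With the widest Hoxa13 peaks at one list length, 5 peaks of replicate 1 and 5 of replicate 2 met E11.5. Whole-list shares were not computed under either of these settings.

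Seen from Hoxa13, 9 of the 44 member peaks at E11.5 met Hoxa11 of either replicate (20.5%, 9.8 to 35.3), against 1.67% of the whole E11.5 list. By replicate, 8 of them met replicate 1, against 1.46% of the list, and 6 met replicate 2, against 0.803%. Among the 9 peaks at E11.0, 2 met each replicate, against 1.44% of that list for replicate 1 and 1.01% for replicate 2. Among the 15 at E12.5, 5 met replicate 1, against 3.4%, and 2 met replicate 2, against 2.3%. At every stage the member peaks thus met Hoxa11 in a larger share than their lists, as the Hoxa11 density in the windows already shows. The 9 E11.5 peaks with Hoxa11 were wide, with a median of 455 bp (264 to 866), and the other 35 had a median of 329 bp (207 to 613). In the whole list the same medians were 463 and 285 bp, so the width of the shared peaks was that of shared peaks elsewhere.

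Across stages, and by the rule of 1 bp, the E11.0 peaks of both clusters recurred at E11.5 without exception. All 9 met an E11.5 peak (100%, 66.4 to 100), against 58.1% of the E11.0 list, and 3 of 9 met an E12.5 peak (33.3%, 7.49 to 70.1), against 30.7%. The 9 meeting E11.5 became 8 when 50% of both peaks had to overlap, and 6 with the widest peaks at one list length. Of the 15 E12.5 peaks, 12 met E11.5 (80%, 51.9 to 95.7), against 70.7%, and 4 met E11.0 (26.7%, 7.79 to 55.1), against 35.6%. When 50% of both peaks had to overlap, 1 of these 15 met E11.5 and 2 met E11.0. A narrow peak inside a wide one can fail that rule. At the HoxC site found in all lists, the E12.5 peak of 296 bp lay inside the E11.5 peak of 620 bp and failed it. No share of the whole list was computed under that rule or at one list length, so these counts cannot be set against the genome. Among the 44 member peaks at E11.5, 9 met E11.0 (20.5%, 9.8 to 35.3), against 20.5%, and 11 met E12.5 (25%, 13.2 to 40.3), against 21.7%, a count that was 1 under the 50% rule. Both other stages were met by 3 of 9 member peaks at E11.0, against 26.8% of the list, by 4 of 44 at E11.5, against 9.6%, and by 4 of 15 at E12.5, against 30.8%. By the rule of 1 bp, and apart from E11.0 peaks meeting E11.5, each interval given held the share of its list. These intervals cover counting error over peaks, which are not replicates, so neither that exception nor the rest is a test result. At E12.5 the 2 peaks of 1 HoxB site are counted separately. The intervals are also wide, so they do not show that the stages overlapped as often as over the genome.

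Besides the sites found in all lists, Hoxa13 was called at all 3 stages at 2 HoxC sites, neither of which had Hoxa11. At the first, on chromosome 15 from 102728294 to 102728738, the peaks measured 346 bp (E11.0), 419 bp (E11.5) and 208 bp (E12.5) and shared 208 bp. The nearest Hoxa11 peaks lay 38128 bp away in replicate 2 and 97877 bp away in replicate 1. At the second, from 102855826 to 102856438, an E11.5 peak of 613 bp spanned an E11.0 peak of 189 bp and an E12.5 peak of 113 bp. Those 2 peaks did not meet, being 13 bp apart, so the site counts as one of all stages through the E11.5 peak alone.

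Sites shared by E11.0 and E11.5 but without E12.5 or Hoxa11 numbered 2 in HoxC and 3 in HoxB. The widest E11.0 peak among them, of 529 bp, was in HoxB at the site from 96216641 to 96217197, where the E11.5 peak measured 509 bp. That site was the last before the empty end of the window. Sites shared by E11.5 and E12.5 without E11.0 or Hoxa11 numbered 3 in HoxC and 2 in HoxB. With those that also had Hoxa11 replicate 1, there were 5 in HoxC.

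Peaks that met no other list were also counted. None of the 9 peaks at E11.0 was of this kind, against 37.9% of that list, none of the 8 in Hoxa11 replicate 1, against 19.3%, and 1 of the 7 in replicate 2, against 11.2%. At E12.5 there were 3 of 15, against 24.2% of the list, 2 in HoxC and 1 in HoxB. The one from 102765874 to 102765983 measured 110 bp and was 656 bp from the Hoxa13 peak of E11.5 in the site from 102766640 to 102767131. The peak from 102675996 to 102676179 was 1233 bp, and the HoxB peak from 96052772 to 96052943 was 2140 bp, from the nearest E11.5 peak. At E11.5, 23 of 44 peaks met no other list (52.3%), against 66.9% of the whole list. Their median width was 311 bp, against 266 bp for such peaks over the genome. The widest of them was in HoxB, from 96055084 to 96055575 (492 bp), and in HoxC they reached 483 bp.

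Median peak widths in the clusters were above those of their lists except at E12.5 in HoxB. The median at E11.5 was 340 bp in HoxC and 311 bp in HoxB, against 286 bp over the list. At E11.0 it was 277 bp in HoxC and 402.5 bp in HoxB, against 245 bp, and at E12.5 it was 177 bp in HoxC and 140 bp in HoxB, against 154 bp. For Hoxa11 replicate 1 the medians were 312.5 bp in HoxC and 351.5 bp in HoxB, and for replicate 2 they were 318 and 330.5 bp, against 283 bp in either list. The widest HoxC peak of each list was the site found in all lists at E11.0, at E12.5 and in both Hoxa11 replicates. At E11.5 the widest was that of 655 bp from 102862996 to 102863650. In HoxB the site found in all lists held the widest peak in every list except Hoxa11 replicate 2, where the 363 bp peak from 96180532 to 96180894 was wider.

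The nearest peaks lay at unequal distances from the window edges. The outermost peak inside the HoxC window began 14758 bp from its lower edge, and the nearest one outside began 2151 bp below that edge. At the upper HoxC edge these distances were 9125 bp inside and 40643 bp outside. For HoxB they were 42708 and 122936 bp at the lower edge and 83332 and 6387 bp at the upper edge.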

How the data were processed

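Peak lists were made by the authors from ChIP-seq reads. MACS2 2.1.0, Bowtie2 2.2.2 and CASAVA 1.4 are named per the submitters' processing notes, with build mm9; thresholds, duplicate handling and use of input are not given in the sources used here. The labels list 4 input DNA libraries, not analysed here. As deposited, the Hoxa13 lists and Hoxa11 replicate 1 hold 3 columns (chromosome, start, end); Hoxa11 replicate 2 has 10. Its deposited score is 10 times the −log10 q-value, whole part, in 100% of peaks; the fold enrichment (a ratio) and −log10 p-value are the authors' own, used to rank peaks within that list.

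Positions are printed 1-based in mm9. Peaks met when they shared at least 1 bp. Tiles ran from the start of chromosomes 1 to 19, X and Y to their last peak, and a window was compared by its count of peak starts. The overlap and joining code was tested on simulated peaks. Python 3.11.15, numpy 2.4.6, pandas 2.3.3 and scipy 1.17.1 were used. Sites named were those with Hoxa11 in either replicate, those with Hoxa13 at all 3 stages and the widest peak of each list per window; others, such as the peaks found at E12.5 alone, were chosen after their values were seen. Members and windows were chosen with earlier results of these data known. The planned motif count was not run, because it needs an mm9 genome.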

Additional observations from a re-analysis of the deposited data

How the results depend on the processing

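Of 136 counts recomputed under other settings, 115 stayed within 1.5 times the reported count. Some of these could not move. The Hoxa11 lists were not cut to one list length, so overlaps between replicates were fixed there. Leaving out a Hoxa11 list can change the sites with Hoxa13 at all stages only where a Hoxa11 peak joined Hoxa13 peaks. Counting a peak by any part of it, or joining peaks within 200 bp, moved none. With the widest peaks at one list length, Hoxa13 at E11.5 had 17 HoxC and 6 HoxB peaks, and 5 Hoxa11 replicate 1 peaks met it. When 50% of both peaks had to overlap (E12.5 peaks are the narrowest), 1 E11.5 peak met E12.5 and 1 E12.5 peak met E11.5, 2 E12.5 peaks met E11.0, Hoxa11 replicate 1 met Hoxa13 at 5 peaks (E11.5) and 1 (E12.5), and replicate 2 met E11.0 at 1. In HoxB this rule left 1 site with both Hoxa11 replicates and 0 with Hoxa13 at all stages. With edges moved out by 50 kb HoxB had 2 sites with Hoxa13 at all stages. With edges moved in by 50 kb HoxC had 2 Hoxa13 peaks at E11.0 and 19 at E11.5. In the wider 50% of each list HoxC had 3 Hoxa13 peaks at E11.0, 6 at E12.5 and 3 of Hoxa11 replicate 2; HoxB had 2 at E12.5 and 1 of Hoxa11 replicate 1. At or above the median fold enrichment of replicate 2, 2 HoxC and 1 HoxB peak remained. Halving or shortening a list lowers its counts by construction. For the other moves the cause was not tested. Whole-list shares were not computed under any of these settings. Without either Hoxa11 replicate the HoxC window had 33 to 34 sites and the HoxB window 14, with 3 and 1 sites of Hoxa13 at all stages. No paired analysis was possible because the results come from no test and Hoxa11 is the single precipitated group with replicate numbers in its labels. Read depth is unknown, so a missing peak does not show that the site was unbound.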
